A study of Mus musculus with 12 samples.

Results

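Ventricles of mouse embryos that carried 3 heterozygous alleles, a premature stop in Mib1 (R530X), a missense change in Asxl3 and a missense change in Apcdd1 (V150I), were compared with ventricles of wild-type (WT) embryos at E15.5 (days of embryonic development). Each genotype had 3 libraries of polyA RNA, each made from a pool of 4 pairs of ventricles, so that the comparison used 6 of the 12 libraries of the series. The labels give the Asxl3 change in different ways, as M1361V in the description of the design and as M1415V in the genotype of the samples. No Cre driver is named for these 6 libraries, so the alleles were not limited to one cell type. A premature stop can lower a transcript level, while a missense change need not alter it. All expressed genes were taken: of 38293 genes in the table, 15719 had no read in any library and 13964 passed a filter on low counts and were tested. The other 6 libraries, used for the estimate of the spread and for a closing comparison, came from E15.5 ventricles of the genotype Mib1_R530X/Mib1_flox; Tnnt2-Cre/+ (the Mib1 mutant) and from Mib1_flox/+; Tnnt2-Cre/+ (the Cre control). Tnnt2-Cre recombines the loxP-flanked allele in cardiomyocytes, so that the Mib1 mutant keeps a functional Mib1 copy in its other heart cells and the Cre control loses a copy in cardiomyocytes only.

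Mib1 encodes a ubiquitin ligase that acts in signal-sending cells, where it drives the endocytosis of the Notch ligands Delta and Jagged that is needed to activate Notch receptors on neighbouring cells. Asxl3 encodes a partner of the deubiquitinase BAP1, which removes ubiquitin placed on histone H2A by Polycomb complexes. Apcdd1 encodes a membrane glycoprotein that binds Wnt ligands and their coreceptor and lowers Wnt signalling. In the developing ventricle, Notch signals pass between endocardium and myocardium while trabeculae form and the compact wall grows, and MIB1 variants have been found in families with left ventricular noncompaction.

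The WT libraries held 11756341, 12055760 and 12346718 estimated reads in genes, and the triple heterozygote libraries 11291058, 22157720 and 10106618. Levels are given as CPM, counts relative to library size with TMM scaling. A single read was worth 0.0452 to 0.0991 CPM, and triple heterozygote pool 2, the deepest, has the smallest counting error. The tissue label was checked on markers: in all 6 pools 5 cardiomyocyte markers summed to 9720 to 11000 CPM and the ventricular Myl2 and Irx4 to 5480 to 6480 CPM. Atrial Myl7, Myl4, Sln and Nr2f1 summed to 946, 914 and 1050 CPM in WT and 1080, 1230 and 1140 CPM in the triple heterozygote. These sums did not overlap between the genotypes, and of the atrial markers Myl4 alone did not. Markers of lung epithelium and thymus summed to at most 0.505 CPM in any pool. Pool 1 of both genotypes had the highest level of Xist (378 CPM in WT and 355 CPM in the triple heterozygote, against 71.5 to 116 CPM in the other 4 pools). The same pools had the lowest sum of Y-linked genes (61.1 and 55.99 CPM against 134 to 180 CPM), so both genotypes had a pool with more female embryos. Replicates are pools of ventricles, and whether pools shared litters is not given in the sources used here, so p-values measure the spread between pools only.

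Mib1 transcripts fell 1.99-fold, and those of Asxl3 and Apcdd1 were near their WT level. Mib1 (ENSMUSG00000024294; GRCm38 chromosome 18, 10725548 to 10818704) was at 145, 126 and 136 CPM in WT pools 1, 2 and 3 and at 74, 57.9 and 74.1 CPM in triple heterozygote pools 1, 2 and 3. The groups stood far apart, with every triple heterozygote pool below 75 CPM and every WT pool above 125 CPM. The log2 fold change was -0.99 (SE 0.09, 95% interval -1.19 to -0.80), and the p of the quasi-likelihood test of edgeR, after Benjamini-Hochberg adjustment over all 13964 genes, was 0.000276. This quantity is given below as the edgeR adjusted p. A gene with a value under 0.05 is called, and the words rose and fell are kept for such genes.

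Asxl3 (ENSMUSG00000045215; GRCm38 chromosome 18, 22344883 to 22530227) was at 6.85, 5.89 and 6.25 CPM in WT and 4.63, 6.87 and 6.74 CPM in the triple heterozygote. Pool 1 of the triple heterozygote lay below the WT pools and the other 2 within or above them. Its log2 fold change was -0.047 (SE 0.25, 95% interval -0.57 to 0.48, edgeR adjusted p 0.964), an interval that leaves room for a change of up to about 1.5-fold. Apcdd1 (ENSMUSG00000071847; GRCm38 chromosome 18, 62922231 to 62961179) was at 10.7, 10.3 and 10.8 CPM in WT and 8.89, 11.4 and 10.5 CPM in the triple heterozygote, again with pool 1 lowest and with overlap between the groups. Its log2 fold change was -0.036 (SE 0.18, 95% interval -0.41 to 0.34, edgeR adjusted p 0.961). The signs of these small values were not stable: both turned positive when triple heterozygote pool 1 was left out (0.11 for Asxl3 and 0.05 for Apcdd1). Among close relatives, Mib2, the paralogue of Mib1, was at 17.9, 19.4 and 22.2 CPM in WT and 21.1, 23.7 and 21.1 CPM in the triple heterozygote (log2 fold change 0.16, SE 0.11, edgeR adjusted p 0.662). Asxl1, a ubiquitously expressed relative of Asxl3, was at 102, 95.1 and 95.1 CPM in WT and 88.3, 88.6 and 89 CPM in the triple heterozygote (log2 fold change -0.14, SE 0.08, edgeR adjusted p 0.61), a small difference without overlap that did not pass.

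**Figure D1:**
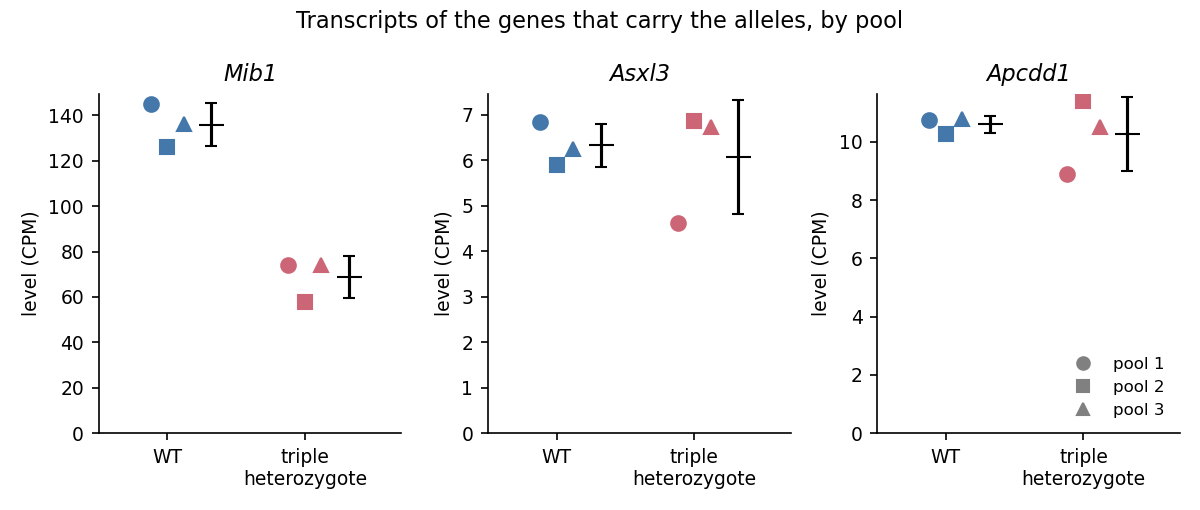
Level in CPM of Mib1, Asxl3 and Apcdd1 in each WT and triple heterozygote pool (circle, square and triangle for pools 1, 2 and 3), with the mean and SD of the 3 pools beside them; the vertical axes start at 0 and differ between panels. Mib1 pools separate, at 126 to 145 CPM in WT and 57.9 to 74.1 CPM in the triple heterozygote, while those of Asxl3 and Apcdd1 overlap.

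Across all genes the difference between the genotypes was small. Of 13964 genes tested, 3 were called (0.0215%): 1 was lower (0.00716%) and 2 were higher (0.0143%). Mib1 fell, and the adult alpha globin genes Hba-a1 and Hba-a2 rose. The number called was 28 with DESeq2, 54 without a filter on low values, and 1, Mib1, when any 1 of the 3 WT pools was left out. By sign, 49.9% of genes were above 0 and 50% below. At an unadjusted edgeR p under 0.05 there were 1209 genes (8.66%), of which 533 were higher (3.82%) and 676 lower (4.84%) in the triple heterozygote. Pools of the groups did not overlap for 2354 genes (16.9%), 1071 of them higher (7.67%) and 1283 lower (9.19%). These shares are the background against which the counts for gene lists below should be read. The fit left narrow intervals: the 95% interval of the fold change lay inside 2-fold in either direction for 12377 genes (88.6%) and inside 1.5-fold for 10340 (74%). Among 9602 genes with a mean of at least 10 CPM over the 6 pools, these shares were 99.5% and 95.4%, against 25.5% and 0.186% of 1615 genes under 2 CPM, where the depth cannot show a difference of that size. With a mean of at least 10 CPM and an unadjusted p under 0.05, 9 genes were at least 1.5-fold higher and 11 at least 1.5-fold lower.

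Genes of the red cell lineage lay higher in the triple heterozygote, led by the adult globins. Hba-a1 and Hba-a2, tandem copies that encode the alpha chain of adult haemoglobin, are nearly identical, as are Hbb-bs and Hbb-bt, which encode the beta chain. Their promoters are shown because these 4 genes lay higher together while located on chromosomes 11 and 7. The sequences are the 120 bases before the RefSeq start of each gene (GRCm38.p6), given 5′ to 3′ on the strand of the gene, with matches to 4 motifs in capitals. Gene positions printed below come from another annotation, GENCODE M21, which starts Hba-a1 before its window, so that this window lies inside that span. The end of the Hba-a2 window also lies inside the span printed for that gene. The motifs were chosen as follows. They were CACCC (bound by KLF factors), CCAAT (the CAAT box), GATAA (the core bound by GATA factors) and TATAA (the TATA box). Each was searched on both strands, so that a match on the opposite strand appears as its reverse complement.
Hba-a1, chr11:32283552-32283671, plus strand: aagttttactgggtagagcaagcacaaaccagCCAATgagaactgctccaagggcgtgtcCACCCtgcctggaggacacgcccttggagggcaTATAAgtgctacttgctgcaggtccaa
Hba-a2, chr11:32296372-32296491, plus strand: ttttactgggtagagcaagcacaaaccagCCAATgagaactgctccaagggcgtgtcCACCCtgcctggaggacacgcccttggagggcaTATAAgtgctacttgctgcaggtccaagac
Hbb-bs, chr7:103827929-103828048, minus strand: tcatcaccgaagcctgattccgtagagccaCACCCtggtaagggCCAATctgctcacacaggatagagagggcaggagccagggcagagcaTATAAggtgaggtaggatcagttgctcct
Hbb-bt, chr7:103813924-103814043, minus strand: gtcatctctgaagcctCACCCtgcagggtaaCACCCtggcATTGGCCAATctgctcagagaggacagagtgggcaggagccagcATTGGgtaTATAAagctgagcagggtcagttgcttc
The alpha globin windows aligned at 95.1% of columns and the beta globin windows at 74.6%. The TATA box lay 27 to 30 bases and the forward CAAT box 75 to 91 bases before the start in each of the 4 windows, and each also held CACCC. In Hbb-bt a reverse match to the CAAT box directly adjoined the forward one. GATAA was in none of these windows, and other sequences that contain GATA were not searched for. Of 32851 mouse promoter windows of this length, 31.7% held CACCC, 21.3% the CAAT box, 11.8% the TATA box and 10.5% GATAA.

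Hba-a1 (ENSMUSG00000069919; GRCm38 chromosome 11, 32283511 to 32284465) was at 1507, 1726 and 1521 CPM in WT and 2414, 3042 and 2619.5 CPM in the triple heterozygote. Hba-a2 (ENSMUSG00000069917; GRCm38 chromosome 11, 32296489 to 32297298) was at 481, 525 and 453 CPM in WT and 766, 962 and 805 CPM in the triple heterozygote. The groups did not overlap for either gene, and pool 2 of the triple heterozygote was highest in both. Hba-a1 rose by 0.76 on the log2 scale (SE 0.11, edgeR adjusted p 0.0351), and Hba-a2 by 0.80 (SE 0.11, 1.74-fold, edgeR adjusted p 0.0189). The authors' estimated counts divide reads that match both copies. Of the possible 60-base reads of Hba-a1, 70.6% also occur in Hba-a2, and 87.5% of those of Hba-a2 occur in Hba-a1, so the values of the single copies are uncertain. With the copies summed, a step added after the data were seen, the alpha globins were still called, at 0.77 on the log2 scale and an edgeR adjusted p of 0.0228. Both calls were lost without any 1 of the WT pools and without triple heterozygote pool 2, with log2 fold changes between 0.67 and 0.85 and edgeR adjusted p between 0.071 and 0.398, and the call of Hba-a1 was also lost without triple heterozygote pool 3 (0.78, edgeR adjusted p 0.0901).

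The beta globins were of the same direction but were not called. Hbb-bs was at 1846, 2053 and 1719.5 CPM in WT and 2725, 3069 and 2888 CPM in the triple heterozygote (log2 fold change 0.63, SE 0.10, edgeR adjusted p 0.0672). Hbb-bt was at 786, 777 and 635 CPM in WT and 1126, 1169.8 and 1105 CPM in the triple heterozygote (log2 fold change 0.63, SE 0.12, edgeR adjusted p 0.161). Neither showed overlap between the groups. As sums, alpha globin was at 2070 ± 157 CPM in WT and 3540 ± 423 CPM in the triple heterozygote, and beta globin at 2610 ± 239 and 4030 ± 196 CPM (SD, n = 3). The embryonic globins Hba-x, Hbb-y and Hbb-bh1, made by primitive red cells, were 0.721 ± 0.154% of all globin transcripts in WT and 0.841 ± 0.151% in the triple heterozygote (SD, n = 3), with overlap between the groups (0.547 to 0.839% and 0.686 to 0.988%). Their share falls as an embryo develops. The ratio of alpha to beta globin was 0.797 ± 0.042 in WT and 0.876 ± 0.0616 in the triple heterozygote (SD, n = 3), also with overlap (0.755 to 0.839 and 0.826 to 0.945).

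Of 30 genes in the erythroid list, 23 were tested, 2 were called higher, 11 were higher and 2 lower at an unadjusted edgeR p under 0.05, and 12 were higher and 3 lower without overlap. Over all genes 3.82% were higher and 4.84% lower at that p, and 7.67% were higher and 9.19% lower without overlap. The list's median log2 fold change was 0.36, against 0 over all genes tested. Alas2, the first enzyme of haem synthesis in red cells, was at 50.3, 55.2 and 39.7 CPM in WT and 64.3, 71.4 and 73.9 CPM in the triple heterozygote (log2 fold change 0.53, SE 0.12, edgeR adjusted p 0.326). Bpgm, which makes the red cell's allosteric regulator of haemoglobin, was at 29.9, 27.4 and 28.5 CPM in WT against 36.8, 35.8 and 37.8 CPM (log2 fold change 0.36, SE 0.08, edgeR adjusted p 0.326). The embryonic globin genes Hba-x and Hbb-y were at 1.14 (SE 0.32) and 0.88 (SE 0.29) on the log2 scale, at unadjusted edgeR p of 0.00298 and 0.00794. Slc4a1, the anion exchanger of the red cell membrane, was at 9.97, 9.85 and 9.37 CPM in WT and 12, 13.7 and 13 CPM in the triple heterozygote, without overlap (log2 fold change 0.41, SE 0.18, edgeR adjusted p 0.565). The 2 members lower at that p, the transferrin receptor gene Tfrc (-0.25, SE 0.11) and the beta spectrin gene Sptb (-0.24, SE 0.11), are also expressed outside red cells. Gata1, Klf1 and 5 other listed genes were not tested. In pooled tissue, more red cells and more of these transcripts per cell cannot be told apart, and the amount of blood kept in the ventricles was not measured.

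**Figure D2:**
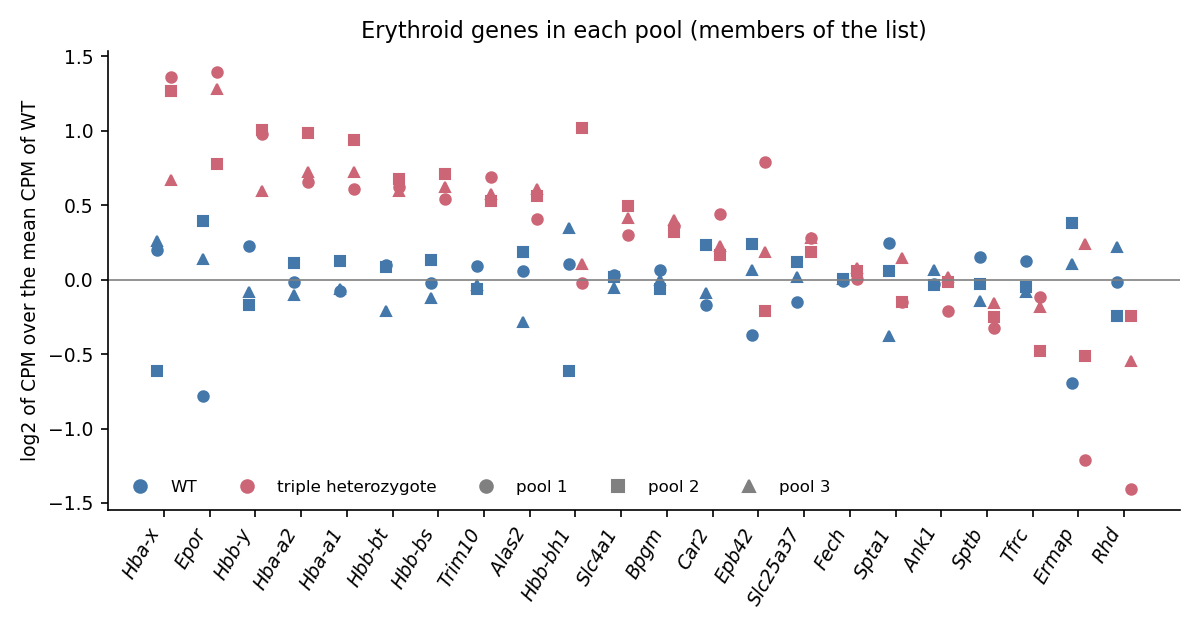
Level of 22 of the 23 tested erythroid genes in each pool, as log2 of its CPM over the mean CPM of the 3 WT pools, ordered by log2 fold change (blue, WT; red, triple heterozygote; circle, square and triangle, pools 1, 2 and 3). The 4 adult globin genes are above all their WT values in every triple heterozygote pool, whereas the genes at the right, from Fech on, overlap or lie lower.

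Next to the globins stood genes that missed the threshold. By size of p, with a mean of at least 2 CPM, no overlap and no predicted genes, the higher genes after the globins were Prrx2, Adnp, Hic1, Rpl10a, Cdkn1c, Rpl15, Alas2 and Bpgm. Prrx2, a homeobox gene of heart valve and outflow mesenchyme, was at 5.03, 5.39 and 6.16 CPM in WT and 10.3, 10.3 and 9.21 CPM in the triple heterozygote (log2 fold change 0.84, SE 0.14, edgeR adjusted p 0.0672). Its pools are well apart at a low level in both groups. Adnp, a zinc finger gene that encodes a chromatin protein, was at 75.1, 68.9 and 84.9 CPM in WT against 137, 113 and 102 CPM (log2 fold change 0.62, SE 0.11, edgeR adjusted p 0.0898). Hic1, a transcriptional repressor gene expressed in mesenchyme, was at 20.1, 18.9 and 23.4 CPM in WT against 27, 35.8 and 30.3 CPM (log2 fold change 0.58, SE 0.11, edgeR adjusted p 0.0986). Cdkn1c, an imprinted gene for a cyclin-dependent kinase inhibitor that is high in embryonic myocardium, was at 211, 222 and 236 CPM in WT against 268, 303 and 293 CPM (log2 fold change 0.37, SE 0.09, edgeR adjusted p 0.326).

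On the lower side, after Mib1, stood Cdc37l1, Frmd5, Plin4, Clic5, Acsl1, Lynx1, Cd36, Rgs5, Cavin4 and Afp. Cdc37l1, a cochaperone of HSP90, was at 73.2, 72.2 and 68.8 CPM in WT and 58, 52.8 and 51.6 CPM in the triple heterozygote (log2 fold change -0.40, SE 0.07, edgeR adjusted p 0.0898). Frmd5 was at 75.8, 73.5 and 78.7 CPM in WT against 54, 56 and 59.5 CPM (-0.43, SE 0.08, edgeR adjusted p 0.0986), and Clic5 at 132, 113 and 118 CPM in WT against 97.5, 86.5 and 91.9 CPM (-0.40, SE 0.08, edgeR adjusted p 0.187). These differences are of less than 1.5-fold. The genes were picked among those whose pools did not overlap, as 9.19% of all genes did on the lower side. Cavin4, a muscle-specific protein of caveolae, was at 29.8, 32.2 and 27.8 CPM in WT against 21.2, 19.6 and 22 CPM (edgeR adjusted p 0.326). Rgs5, a pericyte gene, was at 134, 133 and 115 CPM in WT against 104, 87.3 and 92.2 CPM (edgeR adjusted p 0.326). Lynx1, a membrane-anchored modulator of acetylcholine receptors, was at 38.6, 43 and 39.5 CPM in WT against 24.9, 31.5 and 29.9 CPM (edgeR adjusted p 0.263).

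Genes of lipid handling lay lower in the triple heterozygote. Plin4, a lipid droplet coat protein, was at 11.4, 14 and 12.9 CPM in WT and 2.9, 4.79 and 5.25 CPM in the triple heterozygote, a log2 fold change of -1.55 (SE 0.30, 95% interval -2.20 to -0.90, edgeR adjusted p 0.161). Acsl1, which activates long-chain fatty acids, was at 269.9, 273 and 251 CPM in WT and 183, 177 and 187 CPM in the triple heterozygote (-0.54, SE 0.11, edgeR adjusted p 0.262). Cd36, the fatty acid transporter of the cell membrane, was at 476, 450.4 and 439.9 CPM in WT against 355, 291 and 353 CPM (-0.45, SE 0.10, edgeR adjusted p 0.326). Plin4, Acsl1 and Cd36 were picked among genes without overlap between the groups. Of 33 tested genes of fatty acid oxidation, 26 were below 0 with a median of -0.10, and 0 were called. At an unadjusted p under 0.05, 10 were lower and 0 higher (against 4.84% lower over all genes). Without overlap, 14 were lower and 0 higher (against 9.19%). Hadhb and Hadha, the subunits of the mitochondrial trifunctional protein, were at -0.18 (SE 0.06) and -0.17 (SE 0.06) on the log2 scale. Acadm and Acadvl, the medium and very long chain acyl-CoA dehydrogenases, were at -0.19 (SE 0.07) and -0.19 (SE 0.07). Cpt1a, which admits fatty acids to mitochondria, was at -0.24 (SE 0.11). Ppara, a nuclear receptor that drives these genes, was at 16.9, 12.8 and 12.9 CPM in WT and 6.17, 9.9 and 10.3 CPM in the triple heterozygote (-0.68, SE 0.26, edgeR adjusted p 0.565), with triple heterozygote pool 1 lowest. Ppargc1a, its coactivator, was at 205, 185 and 204 CPM in WT against 179, 152 and 177 CPM (-0.23, SE 0.09, edgeR adjusted p 0.565). Named after their values were seen, Plin5, another lipid droplet protein, was at 1.65, 2.36 and 1.07 CPM in WT against 0.363, 0.588 and 0.297 CPM (edgeR adjusted p 0.326). Perm1, a regulator of muscle mitochondria, was at 38.5, 41.8 and 41.6 CPM in WT against 30.9, 29.9 and 33.6 CPM (edgeR adjusted p 0.37) and Lpl, lipoprotein lipase, at 604, 595 and 590.3 CPM in WT against 547, 432 and 497 CPM (edgeR adjusted p 0.565). Other genes of lipid use overlapped. These were Fabp3 (527, 570.1 and 531 CPM in WT against 516, 543 and 486 CPM), Pdk4 (69.9, 75.8 and 68.5 CPM in WT against 79.9, 61 and 66.1 CPM) and Angptl4 (8.58, 9.43 and 8.05 CPM in WT against 8.71, 8.14 and 8.12 CPM). The median of the list was between -0.07 and -0.13 with each of the 6 pools left out in turn.

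The nuclear genes of the respiratory chain had a median on the other side of 0 from fatty acid oxidation. Fold changes also went with gene length, as described below, and these medians are not adjusted for it. Of 77 tested nuclear genes of the chain, 53 were above 0 with a median of 0.05, 0 were higher and 2 lower at an unadjusted p under 0.05. The first was Ndufs1, a complex I subunit (673, 615 and 599 CPM in WT and 575, 525 and 544 CPM in the triple heterozygote, -0.20, SE 0.07). The other was Sdha, the catalytic subunit of complex II (976, 980.1 and 958 CPM in WT against 893, 868 and 870.2 CPM, -0.15, SE 0.06). The 13 mitochondrially encoded genes had a median of -0.04 with 0 past that p. In the list of glycolysis and hypoxia response (37 tested, median 0.02), 2 were higher and 2 lower at that p. Ankrd37 (0.61, SE 0.21), a target of hypoxia-inducible factor, lay higher. In contrast, the hypoxia targets Egln3 (-0.37, SE 0.17) and Pdk1 (-0.22, SE 0.09), an inhibitor of pyruvate entry into mitochondria, lay lower.

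**Figure D3:**
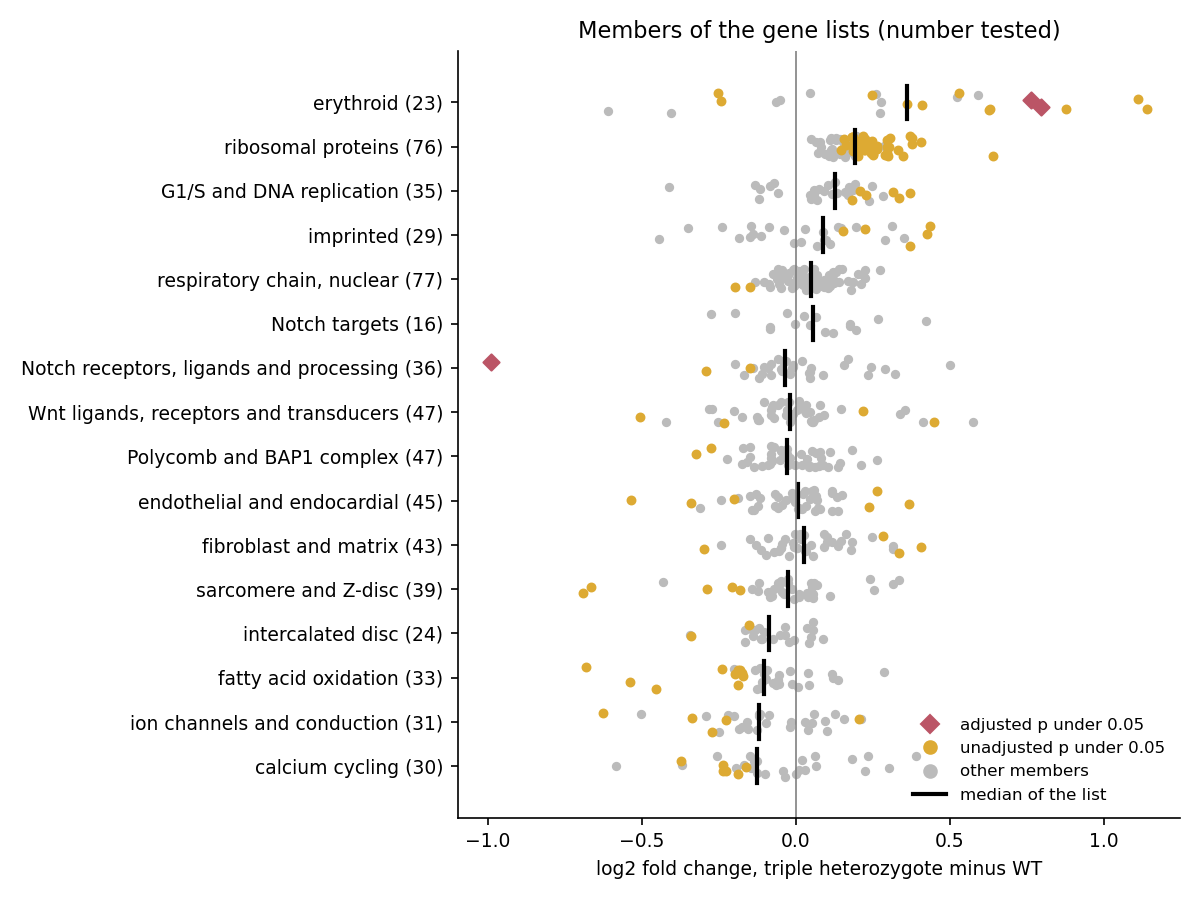
Log2 fold change (triple heterozygote minus WT) of each tested member of 16 gene lists, with the number tested in brackets; red diamonds are called, orange points have an unadjusted p under 0.05, grey points neither, and the black bar is the list's median. Ribosomal protein genes all lie above 0 (median 0.19) and erythroid genes have the highest median (0.36), whereas fatty acid oxidation, ion channel and calcium cycling genes have medians of -0.10, -0.12 and -0.12.

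All 76 tested genes of cytosolic ribosomal proteins were above 0, with log2 fold changes from 0.05 to 0.64 and a median of 0.19. At an unadjusted edgeR p under 0.05, 40 were higher and 0 lower (3.82% of all genes were higher), and 57 were higher without overlap (7.67% of all genes), but 0 were called. Rpl10a was at 161, 208 and 199 CPM in WT and 257, 369 and 257 CPM in the triple heterozygote (0.64, SE 0.15, edgeR adjusted p 0.326). Rpl15 was at 415, 479 and 442 CPM in WT against 581, 607 and 549 CPM (0.38, SE 0.09, edgeR adjusted p 0.326) and Rps26 at 268, 295 and 287 CPM in WT against 333, 373 and 336 CPM (0.29, SE 0.08, edgeR adjusted p 0.469). Pool 2 of the triple heterozygote was highest for all 3 genes. Reads of Rpl15 are shared with a processed copy, Rpl15-ps3, all of whose possible 60-base reads occur in Rpl15 and which was given 685, 502 and 961 reads in WT and 26, 0 and 0 in the triple heterozygote. With both summed, Rpl15 was at 475, 521 and 521 CPM in WT and 583, 607 and 549 CPM in the triple heterozygote, closer together but still without overlap. The number of ribosomal protein genes past an unadjusted p of 0.05 was 5 without triple heterozygote pool 2 and 5 without WT pool 1, with medians of 0.14 and 0.15.

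Ribosomal protein genes are short, and fold changes went with gene length across the whole table. Genes were divided into 5 bins of equal size by exonic length (all exons of a gene merged, GENCODE M21). From the shortest to the longest bin the median log2 fold change was 0.0947, 0.0407, 0.00776, -0.0309 and -0.0876. In the shortest bin 8.87% of genes were higher and 0.978% lower at an unadjusted p under 0.05, and in the longest 0.869% were higher and 10.7% lower. Other genes of 1351 to 2688 bases, the middle range of the ribosomal protein genes, had a median of 0.0801, and those of them with a mean of at least 100 CPM a median of 0.0502, both below the 0.191 of the ribosomal protein genes. Mitochondrial ribosomal proteins (median 0.0624), proteasome subunits (0.0525) and translation factors (0.0262) were also below it. The pools did not share the trend equally. Relative to the mean of the 12 libraries, genes of the shortest bin were, among the 6 pools of WT and triple heterozygote, highest in triple heterozygote pools 1 and 2 (0.052 and 0.097) and lowest in WT pool 1 (-0.079). The other 6 libraries ran from -0.085 to 0.119. They were at -0.013 to 0.006 in WT pools 2 and 3 and -0.011 in triple heterozygote pool 3. Between the Mib1 mutant and the Cre control the trend ran the other way (-0.0774 in the shortest and 0.061 in the longest bin). The labels give no RNA quality or library batch, and the part of either in these values was not tested. With a trend on exonic length removed from each library, an alternative added after the data were seen, the median of the ribosomal protein genes was 0.13, with 24 higher at an unadjusted p under 0.05. Mib1 was then called (-0.90, edgeR adjusted p 0.000138), but the short genes Hba-a1 and Hba-a2 were no longer called (0.65 and 0.68, edgeR adjusted p 0.232 and 0.273). Erythroid genes then had a median of 0.34 and fatty acid oxidation genes one of -0.12 with 14 lower at an unadjusted p under 0.05, close to the medians without that step.

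**Figure D4:**
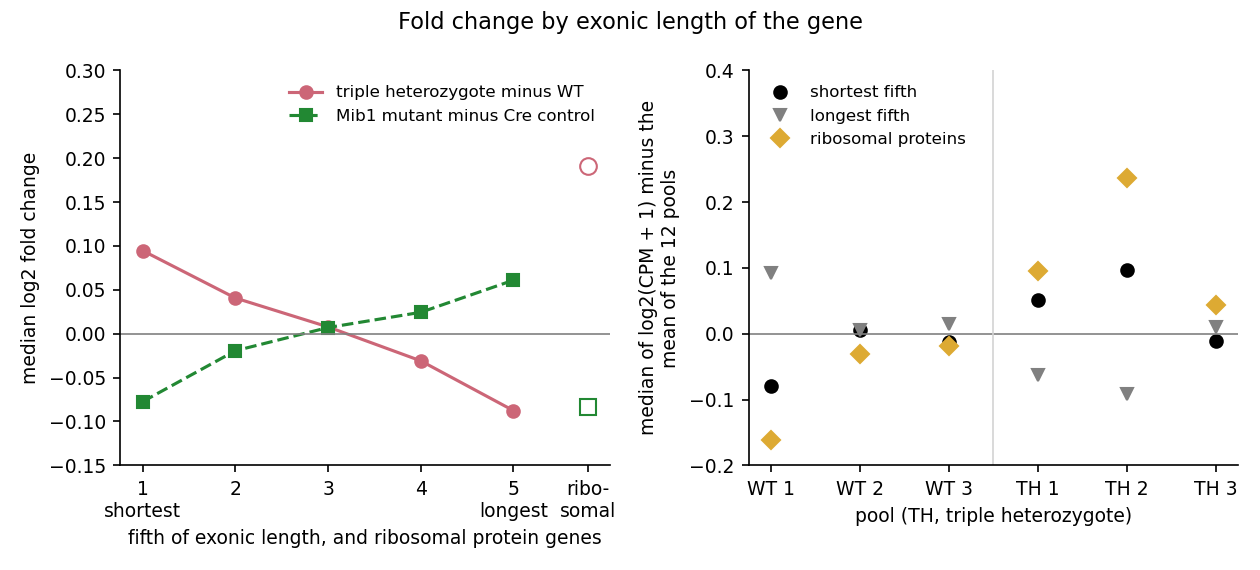
Left, median log2 fold change of genes in each of 5 bins of exonic length, and of ribosomal protein genes (open symbols), for the triple heterozygote minus WT (red circles) and the Mib1 mutant minus the Cre control (green squares); right, the median of log2(CPM + 1) in each of the 6 pools, less the mean over the 12 libraries, for the shortest bin without ribosomal protein genes, the longest bin and the ribosomal protein genes. Medians go down from 0.0947 in the shortest to -0.0876 in the longest bin for the triple heterozygote, and WT pool 1 and triple heterozygote pool 2 lie at opposite ends in the right panel.

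Genes of the G1/S transition and DNA replication lay slightly higher. Over all genes 3.82% were higher and 4.84% lower at an unadjusted p under 0.05, and 7.67% were higher and 9.19% lower without overlap. Of 35 tested genes of this list, 28 were above 0 with a median of 0.13. At that p 6 were higher and 0 lower, 18 were higher and 2 lower without overlap, and 0 were called. Cdk2, the kinase of S phase entry, was at 69.2, 75.5 and 75.5 CPM in WT and 85.8, 87 and 85.3 CPM in the triple heterozygote (0.23, SE 0.07, edgeR adjusted p 0.559). Gins2, a subunit of the replicative helicase, was at 19.9, 18.9 and 19 CPM in WT against 20.8, 27.2 and 23.4 CPM (0.32, SE 0.10) and Cdt1, a replication licensing factor, at 29.1, 31.5 and 31.6 CPM in WT against 35.4, 44.1 and 36 CPM (0.33, SE 0.12). Cdkn1c, the lowest p on the list, inhibits this step. The 28 genes of G2/M and mitosis had a median of 0.0020, with 14 above and 14 below 0, and Plk1 (0.24, SE 0.10) and Ube2c (0.22, SE 0.10) past an unadjusted p of 0.05. Of 29 tested imprinted genes 5 were higher and 0 lower at that p (median 0.09). Besides Cdkn1c these were H19 (6508, 6542 and 6206 CPM in WT and 7109, 7519 and 6776 CPM in the triple heterozygote, 0.15, SE 0.06), Peg10 (0.22, SE 0.09), Meg3 (0.44, SE 0.19) and Nnat (0.43, SE 0.19).

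Few genes of the pathways in which the alleles act passed an unadjusted p of 0.05. Over all genes 3.82% were higher and 4.84% lower at that p. Of 36 tested Notch receptors, ligands and processing genes, 3 were lower and 0 higher at an unadjusted p under 0.05 (median -0.03). With Mib1 these were the receptor gene Notch2 (63.6, 61 and 63.7 CPM in WT and 53.4, 58.2 and 58.3 CPM in the triple heterozygote, -0.15, SE 0.07) and Fbxw7. Fbxw7, a ubiquitin ligase subunit that marks active Notch for degradation, was at 27.9, 28.6 and 27.5 CPM in WT against 21.7, 23.1 and 23.7 CPM (-0.29, SE 0.09, edgeR adjusted p 0.559). The ligands Jag1 (-0.091, 95% interval -0.34 to 0.15), Dll4 (0.046, -0.26 to 0.35) and Dll1 (0.32, -0.083 to 0.73) and the receptor Notch1 (-0.056, -0.27 to 0.16) overlapped between the groups. Of 16 tested Notch targets 0 passed that p in either direction (median 0.06). Hes1 was at 0.27 (95% interval -0.03 to 0.56), Hey1 at -0.0033 (-0.32 to 0.31) and Hey2 at -0.027 (-0.24 to 0.18). Heyl was at 0.065 (-0.13 to 0.26) and Nrarp at 0.17 (-0.026 to 0.38).

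In the Wnt pathway, 47 tested ligands, receptors and transducers had a median of -0.02 with 2 higher and 2 lower at an unadjusted p under 0.05. Lower were the receptor genes Fzd4 (47, 42.4 and 37 CPM in WT and 25.3, 28.8 and 35 CPM in the triple heterozygote, -0.51, SE 0.17, edgeR adjusted p 0.559) and Ror1 (79.9, 73.9 and 72.8 CPM in WT against 62.1, 64.9 and 65.5 CPM, -0.23, SE 0.07). Higher was the ligand gene Wnt11 (4.42, 5.73 and 4.52 CPM in WT against 5.9, 6.96 and 7.13 CPM, 0.45, SE 0.18), with Dvl2. Of 15 tested antagonists, the list to which Apcdd1 belongs, Igfbp4 was higher (199, 225 and 214 CPM in WT against 238, 264 and 258 CPM, 0.25, SE 0.09) at that p. Shisa3, which retains Wnt receptors in the cell, was lower (3.81, 1.85 and 2.63 CPM in WT against 1.27, 1.13 and 2.18 CPM, -0.90, SE 0.35). Of 16 tested Wnt target genes 1 was higher, Bambi (44.7, 49.3 and 45.5 CPM in WT against 50.2, 56.4 and 51.3 CPM, 0.18, SE 0.08). The widely used readout Axin2 was at 0.26 (95% interval -0.33 to 0.86), too wide an interval to show a change under 1.5-fold. Of 47 genes of Polycomb and BAP1 complexes 0 were higher and 2 lower at that p (median -0.03). These were Mbd5 (34.8, 31.2 and 29.8 CPM in WT against 26.9, 24.5 and 28 CPM, -0.27, SE 0.10), which encodes a partner of the BAP1 complex, and Phc3 (58.1, 51.2 and 50.5 CPM in WT against 39.4, 38.9 and 50 CPM, -0.32, SE 0.14), a subunit of Polycomb repressive complex 1. Bap1 itself was at 78, 78.1 and 76 CPM in WT against 77.2, 76.8 and 71.6 CPM. Growth factor pathways beside Wnt and Notch also held few genes past that p, which 3.82% of all genes passed on the higher and 4.84% on the lower side. Of 44 genes of BMP and TGF-beta signalling 3 were higher, Tgfb1 (0.29, SE 0.11), Id2 (0.21, SE 0.08) and Bambi, and 1 lower, Smad9, at that p (median -0.015). Of 28 genes of the FGF, neuregulin and ERK response 0 were higher and 3 lower (median -0.06), the ligand genes Fgf1 (-0.27, SE 0.11) and Fgf16 (-1.14, SE 0.49) and the feedback inhibitor Spry4 (-0.29, SE 0.09). Of 32 genes of guidance and apelin signals 0 were higher and 2 lower, Ntn4 and Neo1 (median -0.05). Of 39 listed Hox genes, a class that Polycomb silences, 3 were tested, each under 2 CPM in every pool with a positive value (0.29 to 0.58) and overlap between the groups.

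Contractile, calcium handling and channel genes held more low than high values. Over all genes 3.82% were higher and 4.84% lower at an unadjusted p under 0.05, and 9.19% were lower without overlap. Myom2, which crosslinks the M-band of the sarcomere, was at 122, 122 and 118 CPM in WT and 60.2, 78.9 and 88.7 CPM in the triple heterozygote (-0.67, SE 0.15, edgeR adjusted p 0.326), with pool 1 of the triple heterozygote lowest. Of 39 tested genes of sarcomere and Z-disc 0 were higher and 5 lower at an unadjusted p under 0.05 (median -0.03), among them Xirp2 (-0.69, SE 0.25), Pdlim5 (-0.21, SE 0.08) and the nebulin relative Nebl (-0.29, SE 0.12). Tnnt2 (0.046, 95% interval -0.17 to 0.26) and Myh6 (-0.084, -0.42 to 0.25), which are among the cardiomyocyte markers, overlapped. Of 30 calcium cycling genes 0 were higher and 6 lower at that p, and 9 were lower without overlap (median -0.12). With Srl, Asph and Cacna2d1, these were Casq2, which stores calcium in the sarcoplasmic reticulum (1065, 973 and 989 CPM in WT and 879, 845 and 848 CPM in the triple heterozygote, -0.24, SE 0.08), the pump Atp2a2 and the release channel Ryr2. Atp2a2 was at 3573, 3449 and 3365 CPM in WT against 3033, 2973 and 3107 CPM (-0.19, SE 0.08) and Ryr2 at 842, 683 and 651 CPM in WT against 522, 539.6 and 617 CPM (-0.37, SE 0.16). Of 31 genes of ion channels and conduction 1 was higher and 4 lower (median -0.12). Kcnip2, the subunit that tunes the transient outward potassium current, was at 21.5, 27.7 and 21.1 CPM in WT against 15.3, 15.8 and 14.3 CPM (-0.63, SE 0.19, edgeR adjusted p 0.559). The other lower genes were Kcnj5 (-0.23, SE 0.09), Abcc9 (-0.27, SE 0.10) and Abcc8 (-0.34, SE 0.13), and the higher one was Id2. Of 24 intercalated disc genes 18 were below 0 (median -0.09) and 2, Ctnna3 (-0.34, SE 0.14) and Itgb1 (-0.15, SE 0.07), were lower at that p. Several of these genes are long, and with the trend on exonic length removed the medians of calcium cycling and intercalated disc genes were -0.03 each.

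Markers of the layers of the ventricle showed no shared direction. Of 18 trabecular genes 12 were below 0 (median -0.10), but the single gene past an unadjusted p of 0.05, Cited1, was higher (111, 116 and 122 CPM in WT and 144, 159.7 and 123 CPM in the triple heterozygote, 0.29, SE 0.10). Bmp10, which sustains trabecular growth, was at 49.1, 30.6 and 40.4 CPM in WT against 28.8, 29.2 and 41.9 CPM with overlap (-0.28, SE 0.23). Of 16 genes of compact myocardium 2 were higher, Tnc (0.28, SE 0.11) and Mycn (0.22, SE 0.09), and 2 lower at that p (median -0.02). The 14 ventricular genes (1 higher and 1 lower) and the 18 atrial genes (0 higher and 1 lower) had medians of 0.02 and 0.01. In the atrial list Myl4 was higher and Kcnj5 and Dkk3 were lower without overlap. Among 39 cardiac transcription factor genes 3 were higher, Nkx2-5 (60.7, 72 and 70.7 CPM in WT against 72.5, 97.3 and 72.8 CPM, 0.26, SE 0.11), Hand2 (0.20, SE 0.07) and Foxc1 (0.27, SE 0.10), at an unadjusted p under 0.05. The 4 lower ones were Mef2a (-0.19, SE 0.08), Wwtr1 (-0.15, SE 0.07), Ppara and Ppargc1a. Of 37 genes linked to noncompaction or cardiomyopathy, 1 was called (Mib1), and 1 was higher and 5 lower at that p (median -0.02). Of 33 genes linked to bicuspid aortic valve or outflow defects, 1 was higher and 2 lower (median -0.02).

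Most markers of other ventricular cell types differed little, but the marker sums of endothelial and smooth muscle cells did not overlap between the groups. Of 45 endothelial and endocardial genes 3 were higher and 3 lower at an unadjusted p under 0.05 (median 0.0071). Plvap (0.24, SE 0.10) was above 0, and Vwf (-0.34, SE 0.14), Angpt2 (-0.53, SE 0.23) and Flt1 (-0.20, SE 0.09) were below 0. Pecam1, Cdh5, Kdr and Emcn summed to 750, 737 and 729 CPM in WT and 688, 694 and 703 CPM in the triple heterozygote. Pecam1, Cdh5 and Kdr each lay lower without overlap, while Emcn overlapped. Of 43 fibroblast and matrix genes 3 were higher and 1 lower (median 0.03). The lower gene was Timp3, an inhibitor of metalloproteinases, at 254, 248.6 and 254 CPM in WT and 211, 195 and 211 CPM in the triple heterozygote (-0.30, SE 0.08, edgeR adjusted p 0.468). The summed level of Pdgfra, Tcf21 and Col1a1 was 909, 1230 and 1140 CPM in WT and 1040, 1330 and 1890 CPM in the triple heterozygote, highest in pool 3. Of 19 valve mesenchyme genes 1 was higher, Prrx2, and 1 lower, its relative Prrx1 (31.2, 36.5 and 31.1 CPM in WT against 24, 25.3 and 31 CPM, -0.31, SE 0.11), with a median of 0.18. Of 17 epicardial genes 14 were above 0 (median 0.10), with Krt19 (0.39, SE 0.16) higher and Podxl (-0.20, SE 0.09) lower at that p. Of 19 smooth muscle and pericyte genes 1 was higher, Cnn1 (0.27, SE 0.12), and 2 were lower, Rgs5 and Abcc9 (median 0.02). Myh11 and Cnn1 summed to 114, 107 and 109 CPM in WT and 123, 144 and 124 CPM in the triple heterozygote, while Myh11 alone overlapped. Among other members of the list, Kcnj8 (0.05), Cspg4 (0.02), Pdgfrb (-0.07) and Notch3 (-0.20) overlapped between the groups. Neural and neural crest genes had 9 tested with 0 past that p in either direction (median 0.05). In 26 macrophage and leukocyte genes 2 were higher (median 0.18), the complement gene C1qa (6.33, 5.64 and 5.34 CPM in WT against 6.9, 9.13 and 9.41 CPM, 0.56, SE 0.21) and Spp1, which encodes osteopontin (19.9, 23.8 and 8.22 CPM in WT against 28.8, 21.6 and 43.8 CPM, 0.84, SE 0.31). Macrophage marker sums overlapped (29.4 to 35.5 CPM in WT and 34.9 to 44.6 CPM in the triple heterozygote).

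Of 12 genes in the liver list 4 were tested, none was called, and 2, Alb and Afp, were lower at an unadjusted edgeR p under 0.05 and without overlap. Alb (albumin) had 19, 114 and 10 reads in WT and 1, 2 and 1 in the triple heterozygote, and Afp (alpha-fetoprotein) 25, 124 and 6 in WT and 4, 1 and 1 in the triple heterozygote. At their highest, in WT pool 2, Alb was at 9.60 CPM and Afp at 10.4 CPM, and the markers Alb, Afp and Apoa1 summed to 20.8 CPM there against 3.9 and 1.4 CPM in the other WT pools and 0.181 to 0.817 CPM in the triple heterozygote. The edgeR adjusted p was 0.326 for Alb and 0.326 for Afp. The other tested members overlapped: Ahsg was at 2.25, 2.86 and 2.14 CPM in WT and 2.09, 1.54 and 2.58 CPM in the triple heterozygote, and Trf at 7.89, 12.6 and 8.79 CPM and 11.3, 10 and 9.21 CPM. The fetal liver also makes red cells, and the part of carried-over liver tissue in the values of Alb, Afp or the erythroid genes was not tested. The skeletal muscle gene Tnni2 was at 4.25, 5.31 and 6.66 CPM in WT and 7.26, 9.67 and 13.1 CPM in the triple heterozygote (0.88, SE 0.22, edgeR adjusted p 0.388), while Myod1, Myog and Actn3 summed to at most 2.48 CPM in any pool.

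The stress and decay lists, of 21 to 32 genes, held 1 to 3 higher genes each at an unadjusted p under 0.05. Over all genes 3.82% were higher and 4.84% lower at that p. Of 9 tested sex-linked genes 0 passed an unadjusted p of 0.05, and none of 15 listed genes of lung epithelium and thymus was tested. Of 26 immediate early and heat shock genes 2 were higher at an unadjusted p under 0.05 (median 0.09), Jund (0.33, SE 0.13) and Ier2 (0.34, SE 0.14). Of 24 genes of the amino acid and unfolded protein response 2 were higher, the serine synthesis gene Phgdh (28.9, 32.5 and 32.4 CPM in WT and 35.3, 42.6 and 39.3 CPM in the triple heterozygote, 0.33, SE 0.11) and Ddit3 (0.35, SE 0.16). The 23 interferon response genes had 1 higher, Ifit3 (0.607, 0.589 and 0.329 CPM in WT against 1.63, 1.4 and 0.396 CPM), with a median of 0.13. In 32 antioxidant genes 3 were higher, led by Gpx1 (87.4, 94 and 99 CPM in WT against 103, 131 and 114 CPM, 0.32, SE 0.08, edgeR adjusted p 0.469). Nonsense-mediated decay removes transcripts with a premature stop. Of 21 genes of that pathway or known as its targets 2 were higher, the targets Gadd45b (11.7, 13.8 and 12.2 CPM in WT against 15.3, 18.1 and 16.2 CPM, 0.40, SE 0.12) and Snhg12 (0.51, SE 0.15). The decay kinase Smg1 was lower (219, 176 and 182 CPM in WT against 156, 141 and 162 CPM, -0.33, SE 0.10).

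The 3 alleles lie on chromosome 18, so their neighbours were examined as a group. Within 5 Mb of Mib1, Asxl3 or Apcdd1, 122 genes were tested apart from the 3, of which 0 were called, 2 were higher and 11 lower at an unadjusted p under 0.05, and 82 were below 0 (median -0.05). On the whole chromosome, 5 of 355 were higher and 28, with Mib1 among them, lower at that p, with a median of -0.04. Over all genes 3.82% were higher and 4.84% lower at that p. The medians of the other autosomes ran from -0.03 (chromosome 1) to 0.04 (chromosome 7), and that of X was -0.04.

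The Mib1 mutant shares the stop allele with the triple heterozygote, and no library is common to the 2 contrasts, so their values can be set side by side. Between the Mib1 mutant and the Cre control 210 genes were called (1.5%), 127 higher (0.909%) and 83 lower (0.594%). The number was 415 without Mib1 mutant pool 2, and 123 and 116 without pools 2 and 3 of the Cre control. In the triple heterozygote 105 of the 210 (50%) had the same sign (against 44.2% of all genes), 25 (11.9%) the same sign at an unadjusted p under 0.05 and 16 (7.62%) the opposite sign. Over all genes tested those shares were 3.62% and 5.03%. Of the 83 lower genes, 15 (18.1%, with Mib1 among them) had the same sign at that p and 5 (6.02%) the opposite sign. Of the 127 higher genes, 10 (7.87%) had the same sign and 11 (8.66%) the opposite sign. The 127 had a median of -0.03 in the triple heterozygote and the 83 one of -0.04, against 0.58 and -0.82 in the Mib1 mutant itself. Among genes called in the Mib1 mutant with a mean of at least 2 CPM over its 6 libraries, no overlap and no predicted gene name, the 8 largest changes in each direction were 1.27 to 1.89 and -2.62 to -1.57. In the triple heterozygote these genes ranged from -0.30 to 0.27 and from -0.28 to 0.84. Larger fitted changes in the Mib1 mutant, in Fndc10 and the pseudogene Gm13841, fall outside these limits and come from genes with no read in any pool of 1 group; both are named after their values were seen. Fndc10 was at 2.25, 3.45 and 2.88 CPM in WT and 0, 2.8 and 0 CPM in the triple heterozygote, which overlapped, and Gm13841 had reads in 1 of these 6 pools.

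The difference between the effects was called for 72 of 13964 genes (0.516%), 60 of them among the 210. The count was 233 without Mib1 mutant pool 2 and 28 to 43 without any 1 of triple heterozygote pools 1 and 2, the WT pools, Mib1 mutant pool 3 and pools 2 and 3 of the Cre control. The 10 with the smallest p were Cacna1g, Kif1a, Angpt1, Plekha6, Kcne1, Thbs4, Kcnd2, Aplnr, Gpx3 and Gtsf1. Cacna1g, a T-type calcium channel gene, was -0.17 (SE 0.15) in the triple heterozygote and 1.87 (SE 0.14) in the Mib1 mutant, a difference of -2.04 (SE 0.20, edgeR adjusted p 0.000711). Kif1a, a kinesin gene, differed by -1.92 (SE 0.20, edgeR adjusted p 0.00082) and Angpt1, which encodes a growth factor for vessels and endocardium, by 2.11 (SE 0.23, edgeR adjusted p 0.000824). In the triple heterozygote the 10 genes ranged from -0.17 (Cacna1g) to 0.24 (Gpx3), and their pools overlapped with WT. Kcne1 was at 97.3, 102 and 98 CPM in WT and 94.6, 98 and 87.4 CPM in the triple heterozygote, and Aplnr, the apelin receptor gene, at 51.9, 63.2 and 63.5 CPM in WT against 55.4, 55.8 and 60.8 CPM.

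Some genes lay on the same side of 0 in the 2 contrasts. Mib1 fell by 0.99 in the triple heterozygote and by 1.01 in the Mib1 mutant, and the difference between the effects was 0.022 (SE 0.13, 95% interval -0.26 to 0.30). Acsl1 was at -0.54 and -0.53, Cd36 at -0.45 and -0.47 and Hadhb at -0.18 and -0.34 in the triple heterozygote and the Mib1 mutant. These 3 genes were called in the Mib1 mutant (edgeR adjusted p 0.0289, 0.0289 and 0.00692) and not in the triple heterozygote, and the difference between the effects was -0.01 (95% interval -0.35 to 0.33), 0.014 (-0.29 to 0.32) and 0.17 (-0.013 to 0.34). Prrx2 was at 0.84 and 0.58 and Xirp2 at -0.69 and -1.31, with a difference of 0.62 (95% interval -0.19 to 1.44) for Xirp2. Other genes went apart. Spp1 was at 0.84 in the triple heterozygote and -2.21 in the Mib1 mutant (difference 3.05, SE 0.46, edgeR adjusted p 0.00743). Cited1 was at 0.29 and -0.69 (edgeR adjusted p of the difference 0.00623), and Hba-a2 at 0.80 and -0.23 (difference 1.03, SE 0.15, edgeR adjusted p 0.00659). Apart from Mib1, the genes of this paragraph were chosen after their values were seen.

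**Figure D5:**
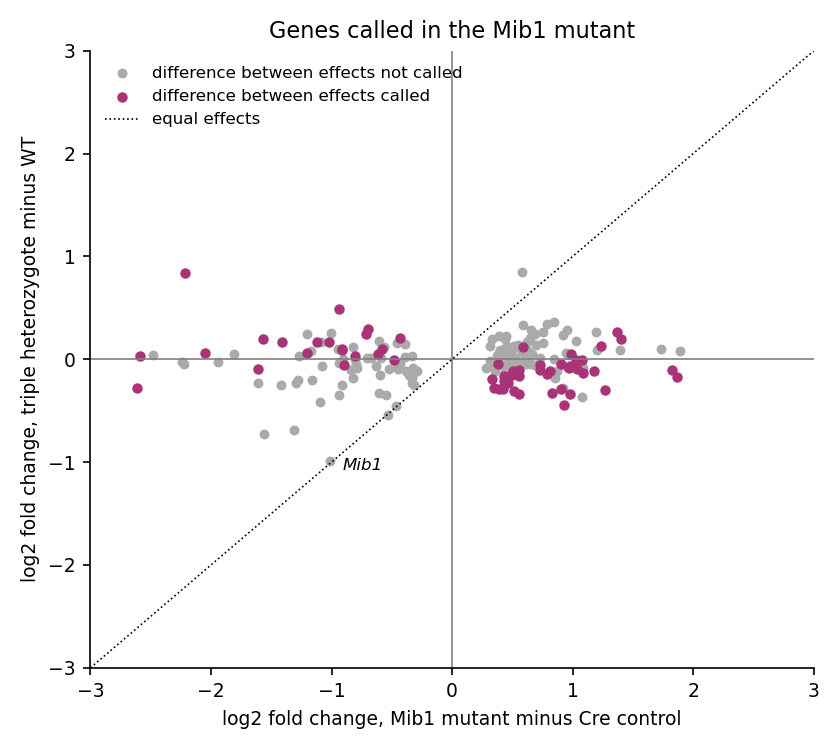
Log2 fold change in the triple heterozygote (vertical) against that in the Mib1 mutant (horizontal) for 208 of the 210 genes called in the Mib1 mutant, with 2 genes beyond the axes left out; purple points are called for the difference between the effects and the dotted line marks equal effects. Most genes lie along the horizontal axis near 0 in the triple heterozygote, while Mib1 lies on the line.

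The triple heterozygote pools differed from each other more than the WT pools did. Over 9602 genes with a mean of at least 10 CPM, the median SD of log2 CPM was 0.111 in the triple heterozygote and 0.0779 in WT, and the SD was larger in the triple heterozygote for 6472 (67.4%). The distance in log2 CPM was at most 0.480 between triple heterozygote pools, 0.368 to 0.393 between WT pools and 0.375 to 0.456 between a pool of each. On the first principal component of the 6 libraries (27% of the variance) triple heterozygote pools 1 and 3 were at the extremes (-29.7 and 25.1), and the WT pools lay between them (-6.67 to 2.3). On the second component (25.3%) the groups did not overlap. The triple heterozygote pools were at 3.07 to 21.5 there and the WT pools at -27 to -1.03. Pool 1 held the lowest values of Ppara, Plin4, Myom2, Asxl3 and Apcdd1, and pool 3 the highest fibroblast marker sum.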

How the data were processed

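PolyA RNA of pooled E15.5 ventricles was made into stranded libraries and sequenced as 60-base single reads, per the labels' protocols. The table the authors deposited holds expected counts per gene. RSEM, the build GRCm38, cutadapt, bcl2fastq 2.20.0.422 and limma are listed in the submitters' processing notes without their order. The column headers write the triple heterozygote as MUT, which was assigned by its name since the other 3 groups have columns under their own names. Expected counts (9.64% of values not whole) were rounded. The 38293 Ensembl identifiers were matched to GENCODE M21, where 36429 were found.

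Counts of all 12 libraries were fitted in 1 model with 4 groups (8 residual degrees of freedom) with edgeR 4.0.16 in R 4.3.3 (filterByExpr, TMM, quasi-likelihood test, Benjamini-Hochberg adjustment, threshold 0.05). The filter kept 13964 genes with 99.9% of counts. Intervals are 95% intervals from the same fit. The difference between the effects is the interaction of the contrasts. DESeq2 1.42.0, limma 3.58.1, other filters and scalings, and fits without each pool were alternatives.

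Genes are named when called, when they carry an allele, when among the 12 smallest p in a direction (mean of at least 2 CPM, no overlap, no predicted genes or pseudogenes), among the 3 smallest p of a list, among the 10 smallest p of the difference, or among the 8 largest changes per direction in the Mib1 mutant (with the same limits). Other list members named for their known role, such as Hey2, Jag1, Lpl, Ryr2 and Tnnt2, were chosen after their values were seen. The levels of 2 genes are not reported here. The members and the 47 gene lists were chosen with earlier results of these data known. The fit was tested on simulated data. Promoter sequences come from RefSeq (GRCm38.p6).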

Additional observations from a re-analysis of the deposited data

Results flagged for a closer look

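For 20 of the named genes the effect of the triple heterozygote differed from that of the Mib1 mutant by the interaction test of edgeR's quasi-likelihood fit (adjusted p under 0.05 over all genes), given below as the log2 difference, triple heterozygote minus Mib1 mutant. In 1 set the Mib1 mutant moved while the triple heterozygote stayed near WT. The difference was -2.04 for Cacna1g, -1.92 for Kif1a, -1.06 for Kcne1, -0.95 for Plekha6 and -1.08 for Thbs4, which rose in the Mib1 mutant. It was 2.11 for Angpt1, 2.34 for Bmp10, 1.77 for Gtsf1, 1.51 for Kcnd2, 0.96 for Gpx3 and 0.84 for Aplnr, which fell in the Mib1 mutant.

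In the red cell genes the triple heterozygote lay above WT and the Mib1 mutant slightly below the Cre control. The difference was 1.03 for Hba-a2, 0.93 for Hba-a1, 0.90 for Alas2, 0.87 for Hbb-bt and 0.76 for Hbb-bs. A last set had log2 fold changes of opposite sign in the contrasts. The difference was 3.05 for Spp1, 0.99 for Cited1, -1.26 for Myom2 and -0.71 for Spry4.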

How the results depend on the processing

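The call of Mib1 was kept in all alternatives, with log2 fold changes from -1.05 to -0.88. Genes called between the triple heterozygote and WT numbered 3 in the reported fit, 28 with DESeq2, 54 without a filter on low values, 10 with only the libraries compared, 5 with the sex mix as a covariate, 1 without erythroid genes, 1 with the length offset, and 1 to 3 with a pool left out. For the Mib1 mutant against the Cre control the count was 210, against 417, 476 and 93 in the first 3 of these settings and 116 to 415 with a pool left out. For the difference between the effects it was 72, against 246 with no filter, 167 with DESeq2 and 28 to 233 with a pool left out. The share of genes with an interval inside 2-fold was 91.9% with only the libraries compared and 84.1 to 85.0% with a pool left out. Genes lower near the alleles numbered 7 within 2 Mb.

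Pools with the same replicate number were weakly correlated over genes in the triple heterozygote and WT (r = 0.0913, -0.0064 and -0.0613). In the Mib1 mutant and the Cre control r was 0.125, 0.166 and 0.014. With 3 pools a group these values cannot settle whether the numbers pair samples. With the replicate block, 3 genes were called in the triple heterozygote contrast, Hba-a1 not among them (adjusted p 0.0564), 318 in the Mib1 mutant and 109 for the difference.

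Signs turned only for small values. With the length offset the log2 fold change was 0.088 for Asxl3, 0.079 for Apcdd1, 0.067 for Notch1 and 0.064 for Plekha6. Hey1 and Thbs4 were 0.0012 and 0.0023 with median-ratio size factors, 0.011 and 0.0122 with no filter, 0.0098 and 0.0113 with a mean of at least 2 CPM, and 0.0092 and 0.012 with only the libraries compared. Hey1 was 0.0056 with the sex mix as a covariate and Thbs4 0.0019 with DESeq2. With a pool left out, values ranged from -0.16 to 0.11 (Asxl3), -0.13 to 0.052 (Apcdd1), -0.17 to 0.033 (Pdk4), -0.040 to 0.15 (Dll4), -0.11 to 0.023 (Notch1), -0.071 to 0.034 (Hey1), -0.14 to 0.029 (Hey2), -0.011 to 0.14 (Heyl), -0.0067 to 0.11 (Tnnt2), -0.19 to 0.038 (Myh6), -0.28 to 0.0047 (Kif1a), -0.13 to 0.22 (Angpt1), -0.097 to 0.021 (Plekha6) and -0.048 to 0.025 (Thbs4). The cause was not tested. For the named genes apart from the 3 allele genes, 2590 of 2682 values in alternatives kept direction and side of the threshold, 12 lost a call, 47 gained one and 33 changed sign. Depth limits genes under 2 CPM, where few intervals lay inside 2-fold.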
